A study of Caenorhabditis elegans with 12 samples.

Results

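Genes for the contractile filaments of muscle were followed in *Caenorhabditis elegans* of the wild-type strain N2, fed 1 of 2 strains of *E. coli*. They were chosen by name as 10 of the 46926 features in the expression table: the myosin heavy chain genes *unc-54*, *myo-3*, *myo-1* and *myo-2*, the paramyosin gene *unc-15*, the giant protein genes *unc-22* and *unc-89*, the tropomyosin gene *lev-11*, and the troponin T genes *mup-2* and *tnt-3*. RNA of whole N2 worms was sequenced, with 6 libraries for the Δ*lpp* mutant as food and 6 for BW25113. The mutant lacks *lpp*, the gene of an abundant lipoprotein in the outer membrane, and BW25113 carries it. The worms themselves carried no mutation or transgene in either group. The study asked how the bacterial mutant bears on lipid metabolism in its host. The age and number of worms per library are not given in the sources used here, nor whether the libraries came from separate cultures. The p-values therefore measure the spread between these libraries, which may be technical.

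A sarcomere is the repeating unit of striated muscle, in which thick filaments of myosin slide along thin filaments of actin. In the body wall muscle of *C. elegans*, which moves the animal, the thick filament is built from the products of *unc-54* and *myo-3* around a core of paramyosin. The pharynx, the muscular feeding organ, uses the myosins of *myo-1* and *myo-2* instead. Tropomyosin and the troponins lie on the thin filament and make contraction depend on calcium. The thin filaments are anchored at dense bodies, the worm's counterpart of the Z-disc, and the thick filaments at the M-line.

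Libraries of the Δ*lpp* group held 21146884 to 23563531 counts, and those of the BW25113 group 20254430 to 24442423. Levels are given as TPM, which is scaled by gene length and to a common total. Different genes can thus be set side by side as far as the length used holds. Differences between the diets are log2 fold changes of Δ*lpp* over BW25113 in counts, scaled by the TMM factors of edgeR and tested with its quasi-likelihood test, with Benjamini-Hochberg adjustment over all 15266 genes tested. CPM stands for counts scaled to a common library total after the same scaling. Genes were called where the adjusted p was below 0.05 and the log2 fold change exceeded 1 in size. TMM factors ranged over 1.08 to 1.27 for Δ*lpp* and 0.794 to 0.988 for BW25113. Without them (library size only), the log2 fold changes of all tested genes had a median of 0.50, against 0.05 with them, a shift of 0.45. Ribosomal RNA genes took 0.408% to 0.567% of a Δ*lpp* library and 1.24% to 2.69% of a BW25113 library. In RNA of whole worms, less RNA of these genes in muscle and more RNA from other tissues cannot be told apart.

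All 10 genes passed the filter on low counts. In the Δ*lpp* group *unc-54*, *unc-15*, *mup-2*, *lev-11* and *unc-22* fell, so that 5 of 10 were called lower, against 15.6% of all tested genes. None rose (0 of 10 with edgeR and with DESeq2, and 0 higher at an unadjusted p under 0.05 in edgeR), against 12.1% of all tested genes with edgeR and 11.6% with DESeq2. At the adjusted p alone, 7 of 10 were lower, with *myo-3* and *unc-89* added, against 32.3% of all tested genes. The remaining *myo-1*, *myo-2* and *tnt-3* did not pass the test with TMM. These 3 were higher at the adjusted p, short of a call, under library size alone (against 59.3% of all tested genes), on log2(TPM + 1) (against 65.9%) and on log2(TPM + 0.1) (against 65.8%). The same 7 genes had every Δ*lpp* library below every BW25113 library in CPM, against 23.7% of all tested genes. Over the 10 genes the median log2 fold change was -1.04, which is -1.09 once the median over all tested genes is subtracted. With library size only, the median was -0.58, and 1 gene, *unc-54*, was called lower, against 11.4% of all tested genes, and likewise 1 on log2(TPM + 1) and on log2(TPM + 0.1), against 8.15% and 10.4%. Less the median over all genes, the median with library size only was -1.08.

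**Figure D1:**
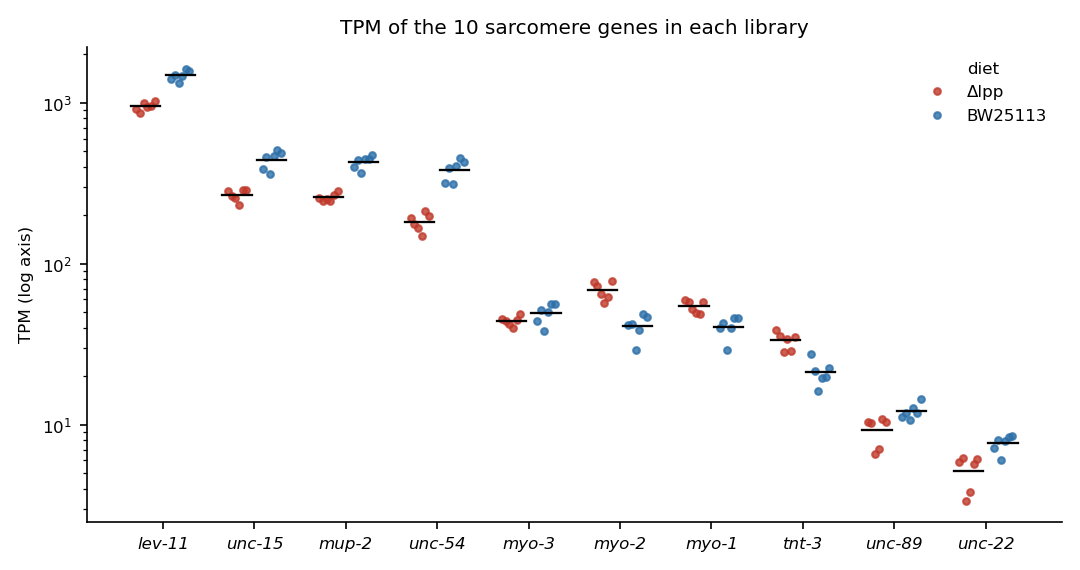
TPM (log axis) of the 10 sarcomere genes in each library, with Δ*lpp* in red left of BW25113 in blue, a point per library (6 in each group) and a bar at the mean. The 4 most abundant genes lie lower in every Δ*lpp* library, while *myo-2*, *myo-1* and *tnt-3* lie higher on this scale.

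The 10 genes together held a summed TPM of 1760 to 2029 in the Δ*lpp* libraries, with a median of 1880, and of 2488 to 3234 in the BW25113 libraries, with a median of 2957. Their share of the counts was 0.547% to 0.647% with Δ*lpp* and 0.822% to 1.18% with BW25113. The groups did not overlap in either measure. *lev-11* alone averaged 952 TPM of a mean sum of 1875 in the Δ*lpp* group, and 1485 of 2917 in the BW25113 group. TPM sets each library to the same total, and on this scale 13.5% of all tested genes had every Δ*lpp* library below every BW25113 library, while 44.7% had every one above. Of the 10 genes, 4 lay below in this way and 3 above.

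*unc-54* (WBGene00006789) encodes the major myosin heavy chain of body wall muscle. It lies on chromosome I of the WBcel235 assembly from 14855901 to 14863482 on the minus strand. Its lowest, median and highest TPM were 148, 184 and 212 in the Δ*lpp* libraries, against 312, 398 and 454 in the BW25113 libraries. Every Δ*lpp* library was well below every BW25113 library. In counts, this was a log2 fold change of -1.74 (standard error, SE, 0.135, edgeR adjusted p = 2.29e-09), or 3.35-fold lower, the largest change of the 10 genes. It was also the gene of the 10 that kept its call under every scaling, at -1.07 on log2(TPM + 1) and -1.28 with library size only.

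*myo-3* (WBGene00003515) encodes the minor myosin heavy chain of body wall muscle, which sits in the middle of the thick filament. It lies at 12226817 to 12234343 of chromosome V (minus strand). Its lowest, median and highest TPM were 39.9, 44.3 and 48.8 in the Δ*lpp* libraries, against 37.95, 50.6 and 55.9 in the BW25113 libraries, which overlapped. In CPM it had 292 ± 23.96 in the Δ*lpp* libraries and 499 ± 91.4 in the BW25113 libraries (SD, n = 6 each), with no overlap. Its log2 fold change was -0.77 (SE 0.114, edgeR adjusted p = 1.04e-05), short of the limit for a call. On log2(TPM + 1) it was -0.14 and did not pass the test (adjusted p = 0.174 from limma).

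*myo-2* (WBGene00003514) encodes a myosin heavy chain of the pharynx. It lies at 12468061 to 12475348 of chromosome X (plus strand). Its lowest, median and highest TPM were 57.3, 68.7 and 77.9 in the Δ*lpp* libraries, against 29.04, 42 and 48.4 in the BW25113 libraries. In TPM every Δ*lpp* library was thus above every BW25113 library, whereas in CPM the groups overlapped, with 393 to 537 in the Δ*lpp* libraries and 299 to 538 in the BW25113 libraries. In counts its log2 fold change was 0.12 (SE 0.122, edgeR adjusted p = 0.410). With library size only it was 0.57 (adjusted p = 0.000341 from edgeR).

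*myo-1* (WBGene00002348), the other pharyngeal gene, lies at 7258946 to 7267057 of chromosome I (minus strand). It had 49.01 to 59.5 TPM with a median of 55.2 in the Δ*lpp* libraries, and 29 to 45.9 TPM with a median of 41.3 in the BW25113 libraries. Its fold change on the log2 scale was -0.19 with TMM (SE 0.114, edgeR adjusted p = 0.144), 0.43 on log2(TPM + 1) (limma adjusted p = 0.00179) and 0.26 with library size only (edgeR adjusted p = 0.0313). Its direction between the diets thus turned with the scaling. BW25113 replicate 3 was the lowest BW25113 library for both pharyngeal genes and for *tnt-3*. Without it, *myo-1* at -0.28 and *tnt-3* at -0.18 passed the adjusted p (0.0141 and 0.0461, edgeR), short of a call, so that 9 of the 10 genes did, against 32.7% of all tested genes.

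*unc-15* (WBGene00006754) encodes paramyosin, the rod protein at the core of thick filaments in body wall and pharynx. It lies at 7376604 to 7383197 of chromosome I (minus strand). Paramyosin RNA had a lowest, median and highest TPM of 230, 273 and 286 in the Δ*lpp* libraries, against 361, 464 and 506 in the BW25113 libraries. The groups did not overlap. In counts it had a log2 fold change of -1.36 (SE 0.121, edgeR adjusted p = 1.50e-08), or 2.57-fold lower. With library size only it was -0.90, and on log2(TPM + 1) -0.73, in the same direction but short of a call.

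*unc-22* (WBGene00006759) encodes twitchin, a giant kinase of the thick filament whose loss makes the worm twitch. It lies at 11972697 to 12011007 of chromosome IV (minus strand), with 23368 exon bases. Its TPM was 3.36 and 3.79 in Δ*lpp* replicates 3 and 4 and 5.73 to 6.18 in the other Δ*lpp* libraries, against 6.0 to 8.46 in the BW25113 libraries. On the log2 scale *unc-22* had a fold change of -1.20 (SE 0.139, edgeR adjusted p = 5.40e-07). On log2(TPM + 1) it was -0.51, and with library size only -0.73, short of a call. At its 3′ end, 93 of its exon bases are shared with *ZK829.9* on the other strand, and whether the counting used strand is not given in the sources used here.

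*unc-89* (WBGene00006820) encodes an obscurin-like giant protein of the M-line. It lies at 4035702 to 4090885 of chromosome I (plus strand), with 25942 exon bases. Its TPM was 6.61 and 7.10 in Δ*lpp* replicates 3 and 4 and 10.2 to 10.9 in the other Δ*lpp* libraries, against 10.6 to 14.4 in the BW25113 libraries. For *unc-89* the log2 fold change was -0.89 (SE 0.135, edgeR adjusted p = 1.47e-05), short of the limit for a call.

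The spread of these 2 giant genes within a group followed that of other long genes. The deviation of log2 CPM from the mean of the group was -0.41 in Δ*lpp* replicate 3 and -0.41 in replicate 4 for *unc-22*. For *unc-89* it was -0.37 and -0.38 in the same libraries. Over the 8 other tested genes with at least 20 kb of exons, the median deviation there was -0.46 and -0.34. The other 8 sarcomere genes had mean deviations of 0.10 and -0.14. In the BW25113 group, replicates 1 and 3 were the low libraries for long genes, at -0.21 and -0.30, and also for the mean of the other 8 sarcomere genes, at -0.23 and -0.37. The long genes also differed between the diets, with a median log2 fold change of -0.34 over those 8, against 0.05 for all tested genes. The part of transcript length in the lower values of *unc-22* and *unc-89* was not tested. Leaving out these 4 libraries together, a setting chosen after seeing the data, gave -1.18 for *unc-22* and -0.89 for *unc-89*. In it 5 of the 10 genes were called lower, against 16.8% of all tested genes. *myo-1* then had -0.36 and passed the adjusted p (0.000705, edgeR), short of a call.

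**Figure D2:**
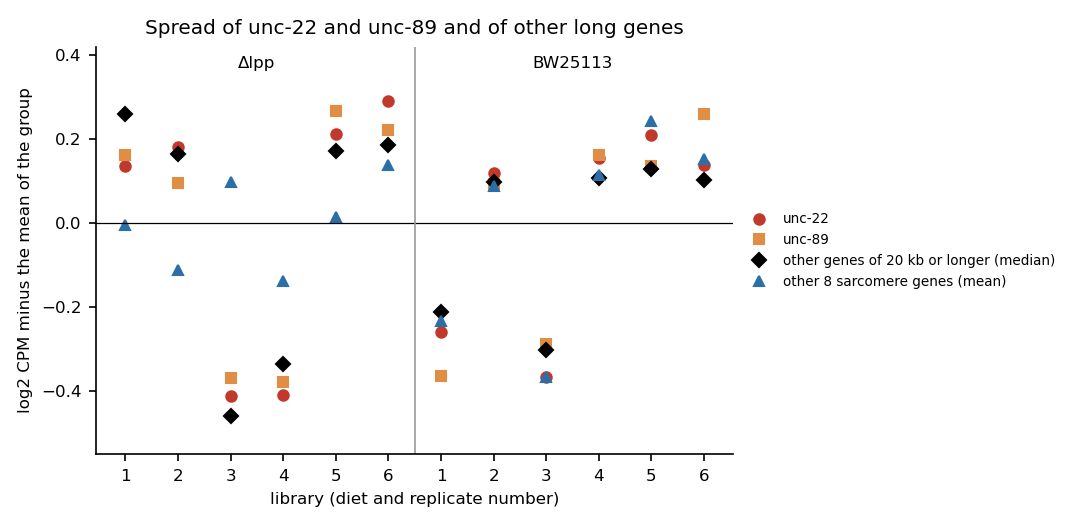
Deviation of log2 CPM from the mean of the library's own group (y axis) in each library (x axis, by diet and replicate number). *unc-22*, *unc-89* and the median of the 8 other genes of 20 kb or longer are all below -0.3 in Δ*lpp* replicates 3 and 4, where the mean of the other 8 sarcomere genes is 0.10 and -0.14.

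*lev-11* (WBGene00002978) encodes tropomyosin, which makes isoforms for body wall and pharynx from 1 gene. It lies at 14621169 to 14631094 of chromosome I (minus strand). It was the most abundant of the 10 genes per length in every library. In counts *unc-54* was above it in every library, at 31775 to 42662 against 23615 to 32185 in the Δ*lpp* group. The first place of *lev-11* thus rests on the length used for TPM. The lowest, median and highest TPM of *lev-11* were 868, 949 and 1024 in the Δ*lpp* libraries, against 1321, 1476 and 1633 in the BW25113 libraries, with no overlap. *lev-11* had a log2 fold change of -1.24 (SE 0.110, edgeR adjusted p = 1.32e-08), -0.64 on log2(TPM + 1) and -0.79 with library size only.

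*mup-2* (WBGene00003495) encodes a troponin T of body wall muscle. It lies at 6408471 to 6410227 of chromosome X (minus strand). The lowest, median and highest TPM of *mup-2* were 245, 254 and 284 in the Δ*lpp* libraries, against 366, 446 and 473 in the BW25113 libraries. The groups lay far apart and did not overlap. For *mup-2*, the log2 fold change was -1.34 (SE 0.105, edgeR adjusted p = 2.55e-09), or 2.53-fold lower. On log2(TPM + 1) it was -0.73, and with library size only -0.89, short of a call.

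*tnt-3* (WBGene00006588) encodes another troponin T and lies at 7937633 to 7945099 of chromosome X (minus strand). Its lowest, median and highest TPM were 28.1, 34.6 and 39.0 in the Δ*lpp* libraries, against 16.1, 20.8 and 27.5 in the BW25113 libraries. In TPM the Δ*lpp* libraries were all higher, yet in CPM the groups overlapped, with 49.8 to 61.2 in the Δ*lpp* libraries and 43.4 to 65.3 in the BW25113 libraries. Its log2 fold change was -0.09 with TMM (SE 0.0988, edgeR adjusted p = 0.420), 0.64 on log2(TPM + 1) (limma adjusted p = 0.000176) and 0.36 with library size only (edgeR adjusted p = 0.0134). The authors' TPM uses a length that can differ between libraries. The ratio of count to TPM, set on a common scale, gives this length behind the TPM. Between the groups it differed on the log2 scale by -0.15 for *tnt-3*, 0.11 for *unc-89* and -0.051 for *unc-54*. For the rest the largest difference was -0.016, for *unc-15*. *unc-54* has 1 annotated transcript of 6204 bases, but its length averaged 8370 in the Δ*lpp* group and 8672 in the BW25113 group. The other myosin genes, with 1 annotated transcript each, were also above it. In the Δ*lpp* group they averaged 7395 against 6457 bases (*myo-1*), 7248 against 6334 (*myo-2*) and 6973 against 6104 (*myo-3*). *mup-2*, also with 1 transcript, had 1439 against 1465.

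**Figure D3:**
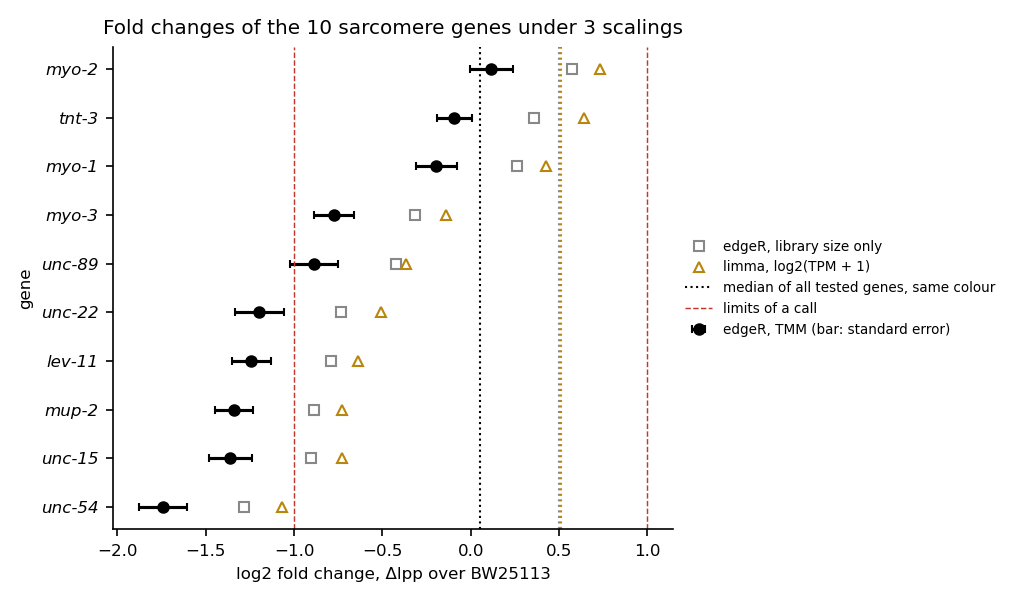
Log2 fold change of Δ*lpp* over BW25113 (x axis) for each of the 10 genes (y axis) with edgeR and TMM (black, bar for the standard error), edgeR with library size only (grey) and limma on log2(TPM + 1) (gold). Dotted lines mark the median of all tested genes in the same colour. The order of the genes hardly changes, from *unc-54* at the low end to *myo-2* at the high end, but *myo-1* and *tnt-3* change sign between the scalings.

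Because a ratio of 2 genes within a library does not depend on the scaling between libraries, 7 ratios of TPM were compared between the diets with a two-sided exact permutation test over the 12 libraries, adjusted over the 7. The smallest p that 6 against 6 libraries allow is 0.00216. A ratio differs between the diets wherever the fold changes of its genes differ. Ratios of other genes were not tested for comparison, and 41.5% of all tested genes did not overlap between the groups in CPM. The pharyngeal myosins *myo-1* and *myo-2* summed to 0.432 to 0.594 of the body wall myosins *unc-54* and *myo-3* in the Δ*lpp* libraries, against 0.166 to 0.224 in the BW25113 libraries. The groups lay far apart. The log2 ratio was higher by 1.53 in the Δ*lpp* group, or 2.90-fold (exact permutation p = 0.00216, adjusted p = 0.00303). In TPM, the pharyngeal pair summed to 123 ± 12.98 in the Δ*lpp* libraries and 81.7 ± 13.1 in the BW25113 libraries, and the body wall pair to 227 ± 25.8 and 434 ± 65.2 in the same order (SD, n = 6 each).

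Within the body wall pair, *unc-54* was 3.72 to 4.77 times *myo-3* in the Δ*lpp* libraries, against 7.19 to 8.21 times in the BW25113 libraries. The log2 ratio was lower by 0.93 in the Δ*lpp* group, a difference of -0.93 (exact permutation p = 0.00216, adjusted p = 0.00303), and -0.97 in counts (exact permutation, adjusted p = 0.00253). The major and the minor myosin therefore did not change in proportion. Within the pharyngeal pair, *myo-2* was 1.16 to 1.34 times *myo-1* in the Δ*lpp* libraries and 0.968 to 1.06 times in the BW25113 libraries, a log2 difference of 0.31 (exact permutation p = 0.00216, adjusted p = 0.00303). This difference was smaller than that of the body wall pair, but the groups did not overlap.

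Between the troponin T genes, *mup-2* was 6.58 to 9.31 times *tnt-3* in the Δ*lpp* libraries, against 14.6 to 23 times in the BW25113 libraries. The log2 difference was -1.40 (exact permutation p = 0.00216, adjusted p = 0.00303), and -1.25 in counts. *unc-15* was 0.746 to 0.783 of the 4 myosins in the Δ*lpp* libraries and 0.838 to 0.885 in the BW25113 libraries, a log2 difference of -0.17 (exact permutation p = 0.00216, adjusted p = 0.00303), and -0.10 in counts (exact permutation, adjusted p = 0.00253). Tropomyosin was 2.45 to 3.202 times the 4 myosins in the Δ*lpp* libraries and 2.70 to 3.24 times in the BW25113 libraries. This log2 difference of -0.09 was within the spread between libraries (exact permutation p = 0.320), and it was 0.0015 in counts, while without the 4 libraries that are low for long genes it was -0.11 and passed (exact permutation, adjusted p = 0.0333). Of the giant proteins, *unc-22* was 0.508 to 0.605 of *unc-89* in the Δ*lpp* libraries and 0.564 to 0.701 in the BW25113 libraries. The groups overlapped, with a log2 difference of -0.19 (exact permutation p = 0.0152, adjusted p = 0.0177), and -0.32 in counts (exact permutation, adjusted p = 0.00253). With the same 4 libraries left out, it was -0.18 and did not pass (exact permutation, adjusted p = 0.0571). The level of this ratio rests on the length behind the TPM, as *unc-22* had more counts than *unc-89* in every library. On the common scale, that length averaged 25452 for *unc-22* and 12892 for *unc-89* in the Δ*lpp* group. In the BW25113 group it averaged 25645 and 11925. For *unc-22* it exceeded the longest annotated transcript, of 21601 bases, and the 23368 exon bases, so it is a relative value.

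**Figure D4:**
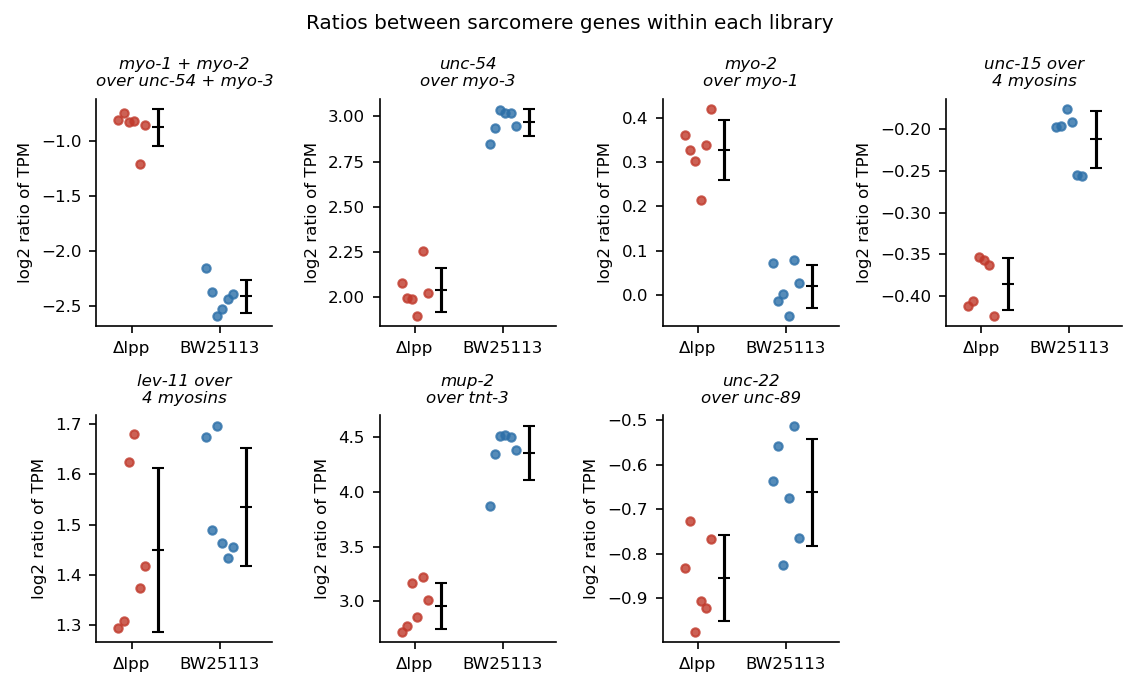
Log2 ratio of TPM between sarcomere genes within each library, a panel per ratio, with Δ*lpp* in red left of BW25113 in blue (6 libraries each) and the mean with its SD in black. The groups do not overlap in 5 of the 7 panels, and they overlap for *lev-11* over the 4 myosins and for *unc-22* over *unc-89*. Of all tested genes, 41.5% did not overlap between the groups in CPM, and ratios of other genes were not tested.

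In both diets *lev-11* stood first in TPM, followed by *unc-15*, *mup-2* and *unc-54*, and *unc-89* and *unc-22* stood last. Counts of *unc-22* were above those of *unc-89* in every library, so that their order rests on the length behind the TPM. Counts of *unc-54* were likewise above those of *lev-11* in every library, so that the first place of *lev-11* rests on it too. *unc-15* and *mup-2* were not separable, since their ranges overlapped in the Δ*lpp* group and in the BW25113 group. In the Δ*lpp* group *unc-54*, at 182 TPM, lay below *mup-2*, at 258, in every library, whereas in the BW25113 group its range overlapped that of *mup-2*, with 385 and 430 TPM. This order too rests on the length behind the TPM. On the common scale it averaged 8672 for *unc-54* in the BW25113 group, against 6204 annotated bases, and 1438 for *mup-2*, against 1465. The middle of the order changed between the diets. In the Δ*lpp* group *myo-2* stood above *myo-1* and *myo-1* above *myo-3*, each in 6 of 6 libraries. In the BW25113 group *myo-3* stood above *myo-2* in 6 of 6 libraries, and *myo-2* above *myo-1* in 4 of 6. The coefficient of variation of the TPM was largest for *unc-22* in the Δ*lpp* group, at 24.3%, and for *tnt-3* in the BW25113 group, at 18%.

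Further muscle genes came from 6 lists with 86 tested genes, of which 3 were called higher and 15 lower, against 12.1% and 15.6% of all tested genes. With library size only, 14 were called higher and 5 lower, namely *tnt-2*, *unc-27*, *clik-1*, *dim-1* and *atn-1*, against 24.4% and 11.4% of all tested genes. On the thick filament list with TMM, 1 of 7 was called lower and 1 higher, against 15.6% and 12.1% of all tested genes. The median of the list was -0.20. *mlc-1*, a myosin regulatory light chain, fell with a log2 fold change of -1.09, and *mlc-2*, its close paralogue, had -0.91. *myo-6*, a further myosin heavy chain gene, rose by 1.53, and *myo-5* had 0.62. Reads of *mlc-1* and *mlc-2*, close copies of each other, may be divided between them.

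Of the 6 muscle lists, the thin filament genes had the lowest median, -0.89. On this list 7 of 19 were called lower and 0 higher, against 15.6% and 12.1% of all tested genes. The troponin T gene *tnt-2* fell most, at -1.79, with 190 to 250 TPM in the Δ*lpp* libraries and 430 to 502 in the BW25113 libraries. The troponin I gene *unc-27* of body wall muscle fell by 1.65 on the log2 scale, and had 429 to 569 TPM in the Δ*lpp* group, against 958 to 1016 in the BW25113 group. The calponin-like gene *clik-1* and the actin gene *act-1* also fell, at -1.56 and -1.36, although reads of the near-identical actin genes may be divided among them. Other troponin genes of the list were not called. The troponin C gene *pat-10* had -0.97, and the troponin I genes *tni-3* and *tni-1* had -0.61 and 0.18. Troponin genes of the pharynx had 0.71 (*tni-4*, troponin I), 0.39 (*tnc-2*, troponin C) and 0.13 (*tnt-4*, troponin T), and *tni-4* was called higher with library size only, at 1.15.

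Of the 22 dense body and M-line genes, 6 were called lower and 0 higher, against 15.6% and 12.1% of all tested genes. Their median was -0.34. *dim-1*, an immunoglobulin-domain protein of the muscle attachment, fell at -1.56, and *atn-1*, the α-actinin gene, at -1.45. The perlecan gene *unc-52* fell at -1.33, though perlecan lies in the basement membrane rather than in the sarcomere. The integrin gene *pat-3* had -0.11, and the highest members were the paxillin gene *pxl-1*, at 0.41, and *lim-8*, at -0.01. Of the genes for excitation and calcium, 1 of 16 was called lower and 0 higher, against the same 15.6% and 12.1%. Their median was 0.16. The calsequestrin gene *csq-1* fell at -1.26, and *sca-1*, the calcium pump of the sarcoplasmic reticulum, had -0.82. The dystrobrevin gene *dyb-1* and the calcium channel subunit gene *unc-36* had 0.86 and 0.66.

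Of the neuromuscular receptor genes, 0 of 13 were called either way, against 27.7% of all tested genes. At an adjusted p under 0.05 alone, 5 were higher and 2 lower (edgeR), against 32.9% and 32.3% of all tested genes. Their median was 0.15, with *ric-3* at 0.96 and *eat-18* at 0.56 at the high end and *acr-16* and *unc-50* at -0.68 and -0.35 at the low end. Of 9 tested genes for muscle regulators, 2 were called higher and 0 lower, against 12.1% and 15.6% of all tested genes. At the adjusted p alone 8 were higher, against 32.9% of all tested genes. The median of the list was 0.82. *ceh-24* and *ceh-22*, homeobox genes of which *ceh-22* acts in pharyngeal muscle, rose by 1.501 and 1.15. *hlh-1*, the worm's MyoD, had 0.60, with 8.49 to 11.1 TPM in the Δ*lpp* libraries and 3.21 to 5.91 in the BW25113 libraries. *unc-120*, the worm's serum response factor, had 0.35, and *hlh-8* had -0.53. With library size only, 7 of the 9 were called higher, against 24.4% of all tested genes. Among 6 non-muscle paralogues, *act-5*, an actin of the intestine, fell at -1.44, while *nmy-1*, *mlc-5* and *tmd-2* had -0.31, 0.13 and 0.21.

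**Figure D5:**
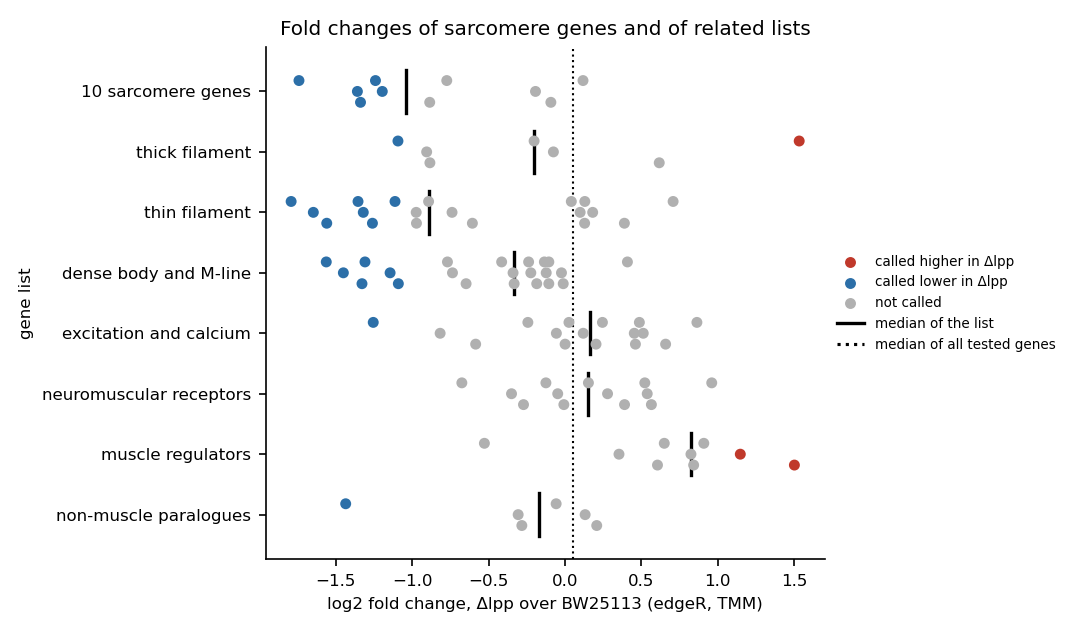
Log2 fold change with TMM (x axis) of the tested genes on each list (y axis), a point per gene, red for called higher and blue for called lower in Δ*lpp*, grey for not called, with a black bar at the median of the list. The dotted line is the median of all tested genes (0.05), and of the 8 groups of genes drawn, the 10 sarcomere genes and the thin filament list have medians below -0.8.

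The genes whose pattern over the 12 libraries was most like the mean of the 10 sarcomere genes were found by the root mean square distance of centred log2 CPM. They were *tra-1*, *tsfm-1*, *aqp-7*, *maph-1.1* and *sca-1*, at distances of 0.0649, 0.0852, 0.0855, 0.0937 and 0.0980, among 14893 genes with a symbol. Their log2 fold changes were between -0.95 and -0.77. Among the 10 genes themselves, *myo-3* stood closest to the common mean, at rank 2, and *unc-54* and *myo-2* farthest, at ranks 3812 and 5022.

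Summed TPM of markers of other cell types is given beside calls with TMM, since on log2(TPM + 1) the median of all tested genes was 0.51. Of all tested genes, 15.6% were called lower and 12.1% higher with TMM. In TPM, 13.5% of them had every Δ*lpp* library below every BW25113 library, and 44.7% had every one above. The summed TPM of 8 epidermis markers was 361 to 471 in the Δ*lpp* libraries and 1204 to 1838 in the BW25113 libraries, with 4 called lower. The collagen gene *col-19* alone averaged 203 TPM in the Δ*lpp* libraries and 1086 in the BW25113 libraries, and *lin-26*, on the same list, had a log2 fold change of 0.29 (edgeR adjusted p = 0.0139). That of 7 intestine markers was 368 to 391 in the Δ*lpp* libraries and 494 to 590 in the BW25113 libraries, with 2 called lower. That of 8 sperm markers was 1.84 to 3.39 in the Δ*lpp* libraries and 70.3 to 94.3 in the BW25113 libraries, where all 6 that were tested were called lower. The 8 neuron markers summed to 561 to 673 in the Δ*lpp* libraries and 252 to 300.4 in the BW25113 libraries, with 2 called higher. The 8 germline and oocyte markers summed to 1687 to 2322 in the Δ*lpp* libraries and 1013 to 1639 in the BW25113 libraries, with 0 called higher and 1 lower, and a median log2 fold change with TMM of 0.10, against 0.05 for all tested genes. The 8 embryo markers summed to 16.9 to 19.9 in the Δ*lpp* libraries and 5.51 to 10.3 in the BW25113 libraries, with 2 of 5 tested called higher. None of these lists had a marker at 0 in every library of a group. The part of these other tissues in the values of the sarcomere genes was not tested.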

How the data were processed

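Per the labels and the study's methods, RNA of whole worms was depleted of ribosomal RNA and sequenced. After read filtering (Seqtk) and alignment (HISAT2), the authors counted fragments per gene with Stringtie. The submitters' processing notes name WBcel235, and tool versions are not given in the sources used here. The authors deposited estimated counts, of which 8.97% are not whole, and TPM, calculated with RNAnorm. The authors' mean TPM of each group was not used.

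The counts were rounded, filtered with filterByExpr (minimum count 10, minimum total 15) and tested with edgeR 4.0.16 in R 4.3.3 (TMM, robust quasi-likelihood test, no covariate). The alternatives used DESeq2 1.42.0, the tool of the study, and limma 3.58.1, other scalings and filters, the replicate number as a block, and each library left out. Standard errors were derived from the quasi-likelihood statistic. Total counts of 20254430 to 24442423 per library put every sarcomere gene at 832 counts or more. Libraries of a group differed beyond counting noise, and none was merged, since chi-square over its degrees of freedom was 4.29 to 66.2 between libraries of a group. The procedure was tested on simulated counts.

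The genes named are the 10 members, the 2 highest and 2 lowest of each related list and the 5 of most similar pattern. Other list members named (*act-1*, *clik-1*, *pat-10*, *tni-1*, *tni-3*, *tnt-4*, *unc-52*, *pat-3*, *hlh-1*, *col-19*, *lin-26*) were chosen after their values were seen, and in the lists of other cell types otherwise only summed levels, medians and counts are given. The members and lists were chosen with earlier results of these data known. *unc-74* and *opt-2* were not found under these names and were not analysed here, and *mls-1* had too few counts. Positions are those of Ensembl release 115, in which all 46926 IDs were found.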

Additional observations from a re-analysis of the deposited data

Results flagged for a closer look

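In 34 groups of 6 values (10 genes and 7 ratios in each diet), 3 had a library far from the other 5. Chance gives about 1 in 20. *myo-1* had 29 TPM in BW25113 replicate 3, below the other BW25113 libraries. The log2 ratio of pharyngeal over body wall myosin was -1.21 in Δ*lpp* replicate 5, still above all BW25113 libraries, where the highest was -2.16. The log2 ratio of *mup-2* over *tnt-3* was 3.87 in BW25113 replicate 1, still above all Δ*lpp* libraries, where the highest was 3.22.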

How the results depend on the processing

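Of 220 values of the 10 genes under 22 alternatives, 201 kept their direction and whether they were called, a rule that takes both limits together, so that some of them crossed the adjusted p alone. *unc-15*, *lev-11*, *unc-22* and *mup-2* kept their direction but were no longer called under library size alone or either TPM scale, where 1 of the 10 genes was called lower. The direction of *myo-1* and *tnt-3* reversed there, to 0.26 and 0.36 under library size alone, 0.43 and 0.64 for log2(TPM + 1), and 0.44 and 0.66 for log2(TPM + 0.1), where with *myo-2* they were 3 of 10 higher at an adjusted p under 0.05. These settings raise the median of all tested genes to 0.50, 0.51 and 0.64. Among the 86 tested genes of the 6 muscle lists, library size alone called 5 lower and 14 higher, against 11.4% and 24.4% of all tested genes. On log2(TPM + 1) 2 were called lower and 12 higher, against 8.15% and 17.3%. The counts on log2(TPM + 0.1) were 2 lower and 20 higher, against 10.4% and 29.9%. Upper quartile scaling called 5 higher, against 14% of all tested genes. Higher genes made up 43.7% of all calls under TMM, against 49.3% under upper quartile scaling and 68.04% under library size alone. With the 4 libraries low for long genes left out, chosen after seeing the data, 5 list genes were called higher, against 13.7% of all tested genes. In that setting *myo-2* reversed to -0.014. The log2 difference of the *lev-11* ratio between the diets was then -0.11 and passed the test. That of the *unc-22* ratio was -0.18 and did not pass (the cause was not tested). In counts the log2 difference of the *lev-11* ratio reversed to 0.0015. In summed CPM, the 10 genes together were at -1.26 on the log2 scale relative to BW25113, against -0.64 in summed TPM. With each library left out in turn, 5 of the 10 genes were called lower and 0 higher each time, 15 to 17 list genes lower and 3 to 4 higher. Of all tested genes, 14.8% to 16.3% were then called lower and 11.8% to 14.8% higher. The log2 difference between the diets in the pharyngeal over body wall ratio stayed between 1.498 and 1.599. Without BW25113 replicate 3, 9 of the 10 genes were lower at an adjusted p under 0.05 (edgeR), with *myo-1* and *tnt-3* added at log2 fold changes of -0.28 and -0.18.

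Whether the replicate numbers pair the libraries is not given in the sources used here. Correlations of the deviations of same-numbered libraries were -0.166 to 0.332, which cannot decide it with so few libraries. With the replicate number as a block, 5 of the 10 genes were called lower and 0 higher, and 15 list genes lower and 4 higher. Of all tested genes, 15.4% were called lower and 12.5% higher with that block. The log2 difference in the pharyngeal over body wall ratio was 1.53 (exact sign permutation over same-numbered libraries, adjusted p = 0.0365). Of the 6 Δ*lpp* libraries, 1 correlated best with its own number.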
